A study of Mus musculus with 18 samples.

Results

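The matrix metalloproteinase (Mmp), ADAMTS (Adamts) and tissue inhibitor of metalloproteinases (Timp) genes were taken from the table of liver RNA-Seq counts by their symbols, which gave 46 of 55487 genes. They comprise 23 Mmp, 19 Adamts and 4 Timp genes. The livers came from male C57BL/6J mice that were bought at 7 weeks of age and given, 1 week before the diets began, an adeno-associated virus (AAV) whose TBG promoter is active in hepatocytes. CON-GFP mice carried the GFP vector and ate the purified control diet. FPC-GFP mice carried the same vector and ate a high-fat diet with fructose, palmitate, and cholesterol (FPC) plus fructose-glucose water. FPC-LIPA mice ate the FPC diet and drank the same water but carried the human LIPA gene, which codes for lysosomal acid lipase (LAL). Diets lasted 16 weeks, and each group had 6 mice with 1 library each. Every mouse, the controls included, had received a vector, and the promoter limits the transgene to hepatocytes.

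Matrix metalloproteinases are zinc enzymes that cut collagens, elastin, basement membrane proteins and many cell surface and signaling proteins, and most are made as inactive proenzymes. ADAMTS enzymes are secreted relatives with thrombospondin motifs, and their members cut proteoglycans, trim procollagen or cleave von Willebrand factor. TIMPs bind the active site of these enzymes, and in the liver the balance between proteases and TIMPs is known for its part in the turnover of scar matrix.

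Counts in the libraries summed to 16632146 to 37739301, and 23 to 31 members exceeded 3 counts per library. Transcripts of ribosomal protein genes took 1.44% to 1.80% of the counts in FPC-GFP and 1.75% to 2.54% in CON-GFP livers. They took 2.16% to 8.15% in FPC-LIPA livers, where FPC-LIPA 36, 37 and 39 held 6.48%, 8.09% and 8.15%, so the DE calls of the LIPA comparison are also given without these 3 livers. The row of mouse Lipa, which does not measure the human transgene as such, held 240 to 406 CPM, the usual unit of counts relative to library size, in FPC-GFP and 254 to 385 in FPC-LIPA livers, so this row does not check the LIPA label. Hepatocyte transcripts were the most abundant of the marker lists, with Alb at a mean of 51310 CPM over the 18 libraries.

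A run of 10 Mmp genes lies side by side on chromosome 9 (GRCm38, chr9:7272514-7699585, 427072 bases), and it holds 3 of the 9 members that were differentially expressed (DE) in either comparison, Mmp12, Mmp13 and Mmp27. Promoter sequences from RefSeq (GRCm38.p6) were found for 32 of the 46 members, including all 10 of this run and 6 of the 9 DE members. The letters TGANTCA take in TGAGTCA and TGACTCA, the core bound by AP-1 (Fos and Jun dimers). Any middle letter (N) was counted, and the pattern is the same on both strands. These letters stood in the 250 bases before a start of 8 of the 10 genes of the run and of 0 of the other 22 members with a promoter. Among all 32851 promoters in the same table, 6.75% held these letters. In the 8 genes they began 35 to 95 bases before the start, and the match in Mmp20 read TGAATCA, which is neither TGAGTCA nor TGACTCA. The letters TATAAA, sought on both strands, stood before 9 members, 7 of them in the run, and before 12.4% of all promoters. In the members every match read TATAAA on the strand of the gene. There was no overlap between the 2 motifs in the sequences shown. The 100 bases before the start are shown for the 3 DE genes of the run and, because they hold the same letters but lay near or at 0 counts in these livers, for the stromelysin genes Mmp3 and Mmp10. All are on the plus strand, 5′ to 3′, with TGANTCA and TATAAA in capitals, at chr9:7272414-7272513 (Mmp13), chr9:7347274-7347373 (the more downstream of the annotated Mmp12 starts), chr9:7445722-7445821 (Mmp3), chr9:7502242-7502341 (Mmp10) and chr9:7571296-7571395 (Mmp27).
Mmp13: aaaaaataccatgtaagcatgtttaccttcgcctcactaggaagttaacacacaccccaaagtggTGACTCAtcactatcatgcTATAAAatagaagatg
Mmp12: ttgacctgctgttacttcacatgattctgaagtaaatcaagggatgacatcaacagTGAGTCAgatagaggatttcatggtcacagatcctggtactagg
Mmp3: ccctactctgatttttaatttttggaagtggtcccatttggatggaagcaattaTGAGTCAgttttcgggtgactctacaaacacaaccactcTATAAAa
Mmp10: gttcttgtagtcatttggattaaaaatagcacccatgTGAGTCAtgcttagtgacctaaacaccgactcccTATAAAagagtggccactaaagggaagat
Mmp27: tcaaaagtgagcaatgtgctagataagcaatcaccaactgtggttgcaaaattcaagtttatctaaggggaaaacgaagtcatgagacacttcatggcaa
Neither motif was in the window of Mmp27, which was DE in both comparisons, and both were in that of Mmp10, which had 0 counts in all 18 libraries. A match is a string of letters here and no measure of binding.

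**Figure D1:**
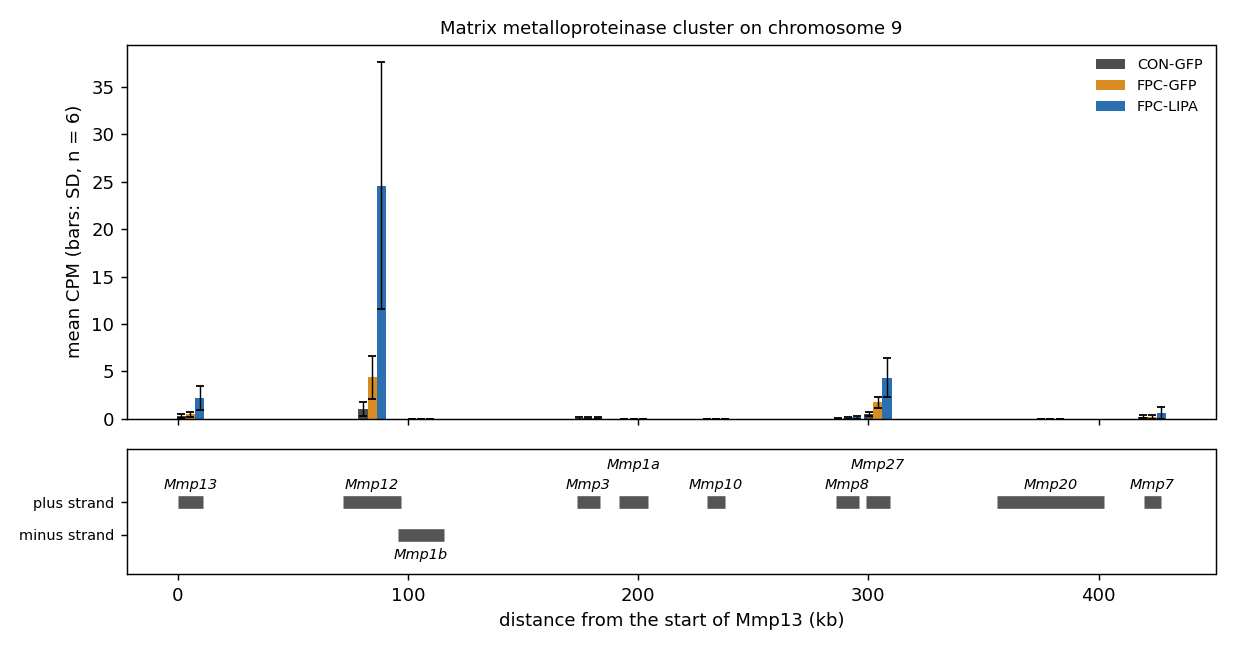
Mean CPM of the 10 Mmp genes on chromosome 9 by group (upper panel, bars with SD, n = 6 livers) above their positions and strands (lower panel), with distance from the start of Mmp13 in kb. Mmp12, Mmp27 and Mmp13 carry nearly all of the signal, and the largest bar is Mmp12 in FPC-LIPA at 24.6 CPM.

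Of the 46 members, 10 never exceeded 3 counts in any library, 18 exceeded 3 counts in all 18 libraries, and 21 had a mean of at least 1 CPM. To compare genes with each other, CPM were divided by exon length in kb. On this scale Mmp19, an enzyme of the basement membrane and matricellular proteins, led with 16.8 ± 1.48 CPM per kb in CON-GFP, 19.3 ± 3.46 in FPC-GFP and 12.2 ± 2.31 in FPC-LIPA livers (SD, n = 6). Mmp15 and Mmp14, membrane-type enzymes held at the cell surface, came next with means over all libraries of 5.17 and 4.55 CPM per kb, and their ranges over the livers overlapped. Timp3, which binds to the extracellular matrix, Timp2 and Adamts1 followed with 3.84, 2.98 and 2.88 CPM per kb. Adamts10, a fibrillin-associated ADAMTS, and Mmp12 came next at 1.39 and 1.38 CPM per kb, and Mmp12 had 0.142 ± 0.102, 0.604 ± 0.311 and 3.39 ± 1.79 CPM per kb in CON-GFP, FPC-GFP and FPC-LIPA livers (SD, n = 6). About 22.3% of the exon bases of Mmp19 and 21.3% of those of Timp3 are shared with a gene on the opposite strand, Tmem198b (mean 4.89 CPM) and Syn3 (mean 0.974 CPM), and since no source used here gives the strand setting of the counting, reads there cannot be told apart.

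**Figure D2:**
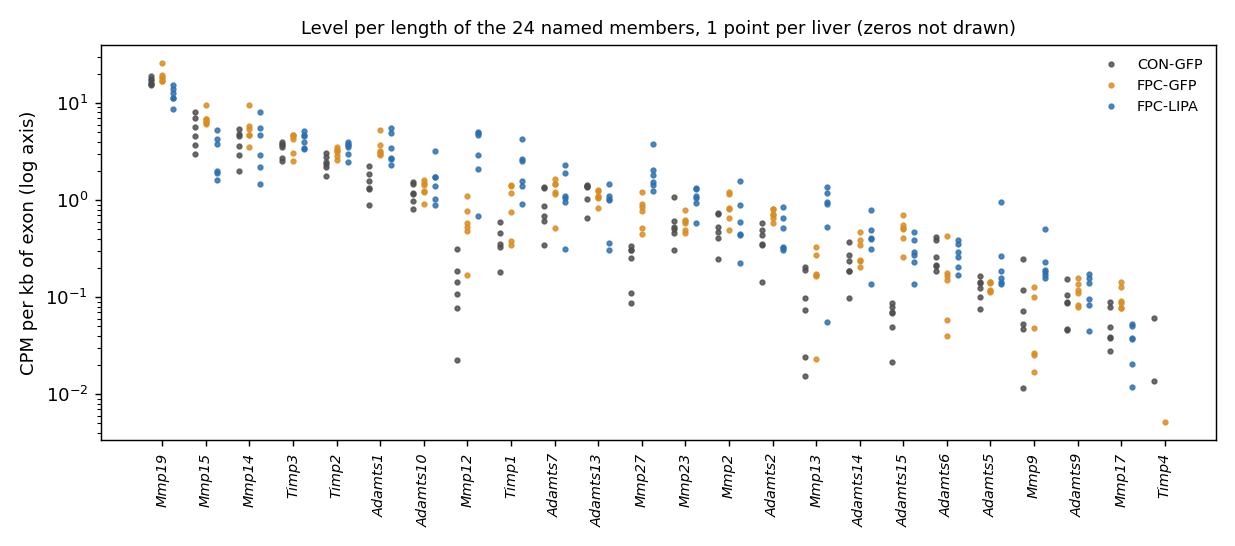
CPM per kb of exon (log axis) of 24 members in each of the 18 livers, in descending order of the mean over all livers, with 1 point per liver and zeros left out. Mmp19 stands above the rest in every group, and Timp4 has points in 3 livers only.

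The sum of all Mmp levels per kb had a median of 28.5 CPM per kb in CON-GFP, 34.2 in FPC-GFP and 29.7 in FPC-LIPA livers. Mmp14, Mmp15 and Mmp19 together made up 89.8% to 94.9% of this sum in CON-GFP livers and 84.5% to 93.1% in FPC-GFP livers. In FPC-LIPA livers they made up 52.4% to 80.5%, below every liver of the other groups. FPC-LIPA 36, 37 and 39 were the lowest of these at 59.8%, 52.4% and 59.9%, and the other 3 FPC-LIPA livers held 66.9% to 80.5%. The Timp sum had medians of 6.25, 8.19 and 9.39 CPM per kb in CON-GFP, FPC-GFP and FPC-LIPA livers. Its ratio to the Mmp sum had medians of 0.216, 0.232 and 0.377, with 0.252 the lowest FPC-LIPA value against 0.268 the highest FPC-GFP value, so the groups overlapped on this measure. These shares are descriptions without a test, and DE members are part of the sums.

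**Figure D3:**
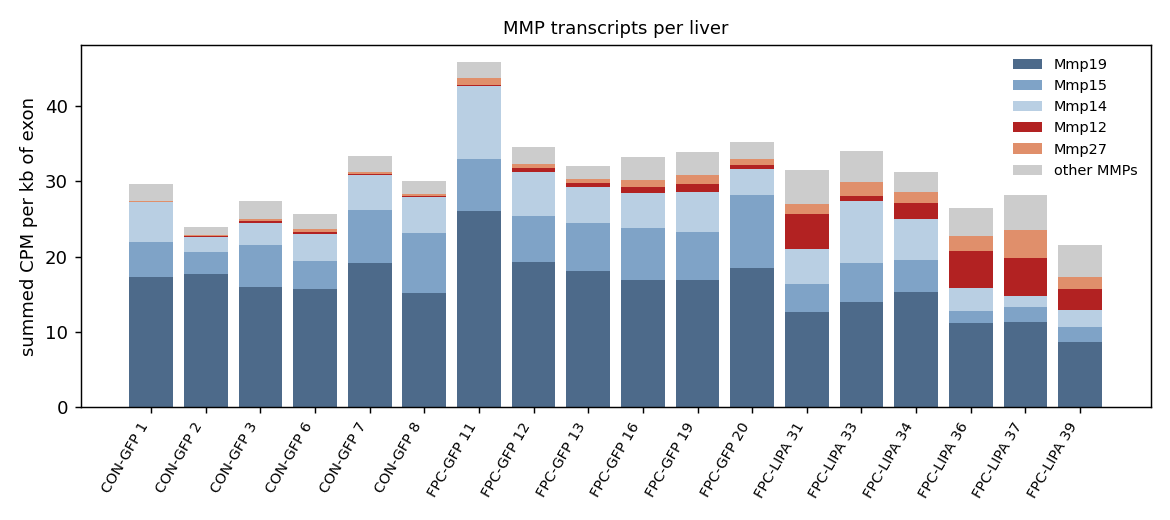
Summed CPM per kb of all Mmp genes in each liver, stacked by gene. Mmp19 is the largest part in every liver, and Mmp12 and Mmp27 widen in the FPC-LIPA livers, except for Mmp12 in FPC-LIPA 33, which lies inside the FPC-GFP range.

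Feeding the FPC diet in mice with the GFP vector raised 5 of the 23 members that were tested and lowered 0. The proteoglycanases Adamts15 and Adamts1, the metalloelastase gene Mmp12, Mmp27 and the inhibitor Timp1 were DE, that is, changed at least 2-fold with an adjusted p under 0.05 in the edgeR quasi-likelihood test. Among all 14307 genes tested, 7.2% were DE (4.76% higher and 2.44% lower), against 21.7% of the tested members. The median log2 fold change was 0.47 for the members tested and 0.01 for all genes, and 21 of the 23 members had a fitted value above 0, as had 51.2% of all genes.

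Adamts15, an enzyme that cuts versican and aggrecan (chr9:30899155-30922452), ran from 0.224 to 0.896 CPM in CON-GFP livers with a median of 0.718. In FPC-GFP livers it ran from 2.70 to 7.28 CPM with a median of 5.29. No FPC-GFP liver overlapped the control livers, and the fitted rise was 7.77-fold, the largest of any member (log2 fold change 2.96, SE 0.30, adjusted p = 5.75e-05 by edgeR). Adamts1, another versican-cutting proteoglycanase (chr16:85793827-85803113), lay at 4.73 to 11.9 CPM (median 7.74) in CON-GFP and at 15.3 to 28.1 CPM (median 16.8) in FPC-GFP livers. These groups too were separate, with a 2.28-fold rise (log2 fold change 1.19, SE 0.21, adjusted p = 0.00140 by edgeR). The highest FPC-GFP liver, FPC-GFP 12, stood apart from the other 5, which lay between 15.3 and 19.6 CPM. Adamts5, a relative of Adamts1, lies 53059 bases away on the same chromosome. It read 0.815 to 1.80 CPM in control livers, a range that took in all FPC-GFP livers at 1.23 to 1.57 CPM, and its log2 fold change was 0.05 (SE 0.22, adjusted p = 0.874 by edgeR).

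Mmp12, the macrophage metalloelastase (chr9:7344381-7369499), had 0.163 to 2.29 CPM (median 0.905) in CON-GFP livers and 1.21 to 7.92 CPM (median 4.0) in FPC-GFP livers. Only the lowest FPC-GFP liver lay inside the control range, and the fitted rise was 4.22-fold (log2 fold change 2.08, SE 0.48, adjusted p = 0.00678 by edgeR). Mmp27, a little-studied member (chr9:7571396-7581885), had 0.193 to 0.749 CPM (median 0.616) in CON-GFP and 0.982 to 2.67 CPM (median 1.79) in FPC-GFP livers. Its groups did not overlap, and it rose 3.22-fold (log2 fold change 1.69, SE 0.34, adjusted p = 0.00310 by edgeR). Adamts15, Adamts1 and Mmp27 each kept every FPC-GFP liver above every CON-GFP liver, a pattern found in 6.19% of all tested genes, while 4.41% were lower without overlap, as were 0 members.

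Timp1, an inducible inhibitor of many Mmp enzymes (chrX:20870166-20874735), had 0 to 0.532 CPM (median 0.304) in CON-GFP and 0.308 to 1.28 CPM (median 0.860) in FPC-GFP livers. The groups overlapped, the lowest FPC-GFP livers falling within the control range. Its rise of 2.67-fold (log2 fold change 1.42, SE 0.48, adjusted p = 0.0451 by edgeR) held in 7 of the 19 other settings in which it was tested and passed neither the leave-one-out of 9 of the 12 livers nor the fit to all 18 libraries (adjusted p = 0.0845 by edgeR). Timp2, which also helps Mmp14 activate pro-MMP2, had an adjusted p of 0.0803 at a log2 fold change of 0.33 (SE 0.13), its control livers reaching from 6.96 to 11.9 CPM and its FPC-GFP livers up to 13.6 CPM. For Timp3 it was 0.22 (SE 0.17, adjusted p = 0.345) with 20.5 to 32.4 and 20.4 to 38.2 CPM, and neither gene was DE.

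Timp4 was not tested, since 1 library exceeded 3 counts. Its highest value was 0.364 CPM among control livers and 0.0303 CPM among FPC-GFP livers, and it was 0 in every FPC-LIPA liver.

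The remaining tested members were not DE on the diet. Adamts2, a procollagen propeptidase, passed the adjusted p but not the 2-fold limit (log2 fold change 0.85, SE 0.23, adjusted p = 0.0173 by edgeR). Without a fold limit, 6 members passed, all higher, as did 23.8% of all genes (12.9% higher and 10.9% lower). Adamts2 had at most 5.40 CPM in control livers and 5.37 to 7.65 CPM in FPC-GFP livers. Its relative Adamts14 had a log2 fold change of 0.47 (SE 0.30). The members with fitted values below 0 were Adamts6 (-0.72, SE 0.44) and Adamts13 (-0.16, SE 0.18), the enzyme that cleaves von Willebrand factor, and neither passed the test. Among the membrane-type genes, the log2 fold change was 0.89 for Mmp17 (SE 0.32, adjusted p = 0.0580), 0.52 for Mmp14 (SE 0.25, adjusted p = 0.133) and 0.38 for Mmp15 (SE 0.21, adjusted p = 0.188). Mmp17 passed without CON-GFP 1 (1.03) or without CON-GFP 6 (1.08). With scaling by library size alone, which moved the median of all genes by 0.20, both Mmp17 (1.07) and Adamts2 (1.03) were DE (adjusted p = 0.0242 and 0.00945 by edgeR). Mmp17 met the filter on low counts only through the FPC-GFP libraries, which held 10 to 28 reads against 4 to 15 in CON-GFP livers. A difference was thus built into its being tested on the diet, and its values there are descriptions. Adamts6 was DE and lower without FPC-GFP 19 (-1.26). The gelatinase Mmp2 had 0.71 (SE 0.28, adjusted p = 0.0753) and the collagenase Mmp13 0.96 (SE 0.57, adjusted p = 0.232). Mmp19, Mmp23, Adamts7, Adamts9 and Adamts10 had log2 fold changes of 0.19, 0.01, 0.50, 0.37 and 0.14. Mmp9, the other gelatinase, was too low to be tested, and its 0.0602 to 0.455 CPM in FPC-GFP livers fell inside the 0.0407 to 0.867 CPM of the controls.

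**Figure D4:**
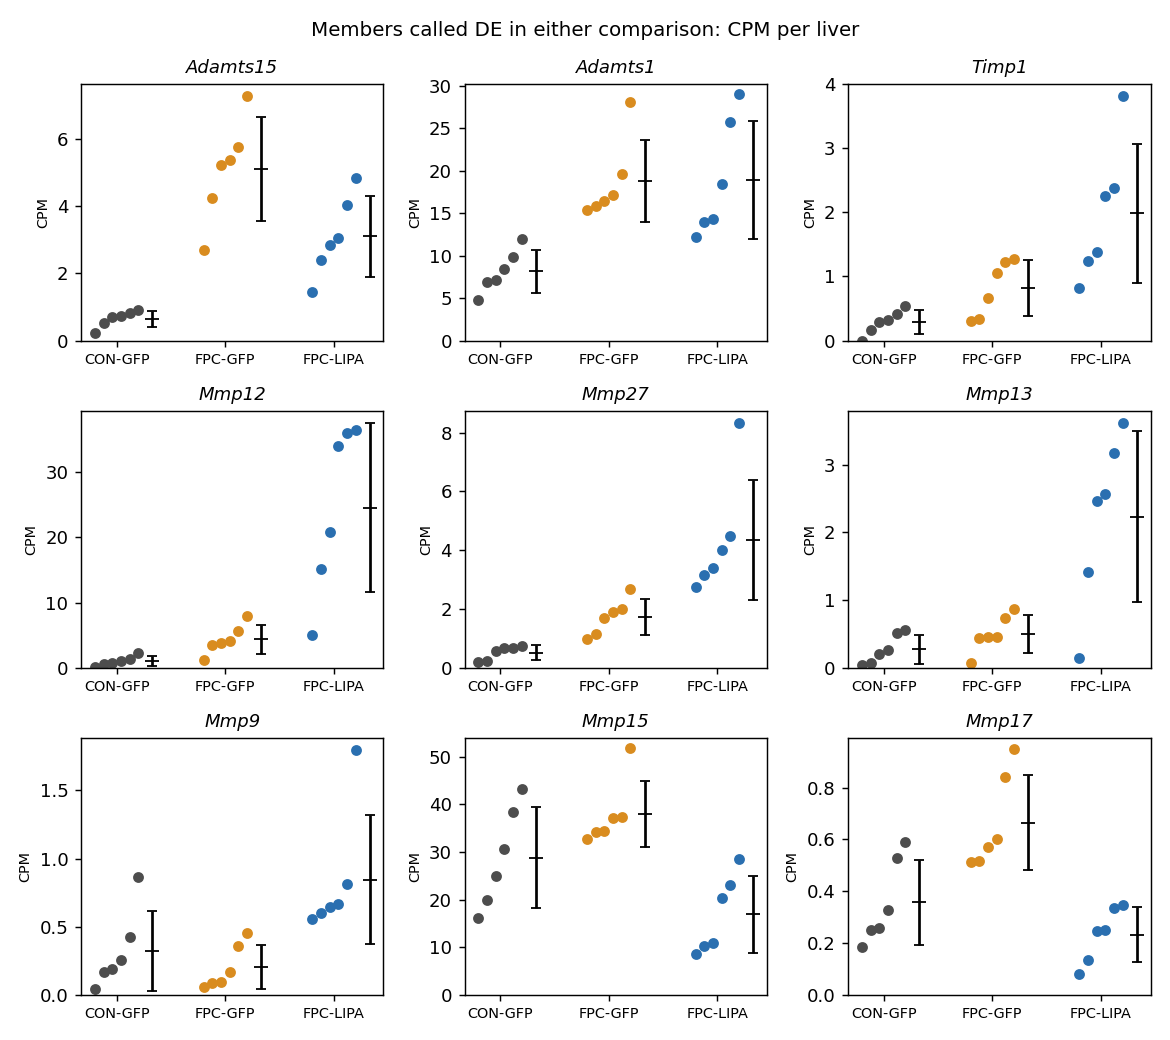
CPM per liver of the 9 members that were DE in either comparison, by group, with the mean and SD (n = 6) beside the points and a separate linear axis from 0 in each panel. For Adamts15 and Adamts1 every liver of both FPC groups lies above every CON-GFP liver, while Mmp15 and Mmp17 have their lowest means in FPC-LIPA.

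Giving LIPA on the FPC diet raised 4 of the 25 members tested and lowered 2, and all 6 were Mmp genes. Mmp12, Mmp27, the gelatinase Mmp9 and the collagenase Mmp13 rose when LIPA was given, and the membrane-type genes Mmp15 and Mmp17 fell. Of these, Mmp9 and Mmp17 passed the filter on low counts only through the group where they were high, so their values are descriptions. Among all 14620 genes tested, 11.4% were DE (10.3% higher and 1.11% lower). The median log2 fold change was 0.14 for the members and 0.04 for all genes, and 17 of the 25 members had a fitted value above 0, against 52.3% of all genes. This comparison shares the FPC-GFP livers with that of the diets, so values are given side by side for each and were not correlated.

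Mmp12 ran from 4.98 to 36.4 CPM (median 27.4) in FPC-LIPA livers against 1.21 to 7.92 CPM in FPC-GFP livers. FPC-LIPA 33 had the lowest value and lay inside the FPC-GFP range, and the other 5 lay above it at 15.2 CPM or more. The rise was 5.61-fold (log2 fold change 2.49, SE 0.47, adjusted p = 0.0110 by edgeR). Mmp27 ran from 2.74 to 8.34 CPM (median 3.69), and every FPC-LIPA liver lay above the highest FPC-GFP liver, with a 2.49-fold rise (log2 fold change 1.32, SE 0.32, adjusted p = 0.0184 by edgeR).

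Mmp9 (chr2:164940780-164955850), a gelatinase of neutrophils and macrophages, ran from 0.556 to 1.80 CPM (median 0.655) against 0.0602 to 0.455 CPM (median 0.131) in FPC-GFP livers. The groups did not overlap, although at 57 reads or fewer in a library this is a low level, and the rise was 4.22-fold (log2 fold change 2.08, SE 0.52, adjusted p = 0.0195 by edgeR). Mmp9 passed the filter on low counts only through the FPC-LIPA libraries, its FPC-GFP livers holding 2 to 15 reads, so a difference was built into its being tested and its value is a description. Mmp13 (chr9:7272514-7283331), the main interstitial collagenase of mice, ran from 0.148 to 3.62 CPM (median 2.52) against 0.0623 to 0.873 CPM (median 0.456). FPC-LIPA 33 again had the lowest value, inside the FPC-GFP range, and the rise was 4.39-fold (log2 fold change 2.14, SE 0.60, adjusted p = 0.0278 by edgeR).

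Mmp15 (chr8:95352268-95375080) ran from 8.67 to 28.5 CPM (median 15.6) in FPC-LIPA livers and from 32.8 to 51.8 CPM (median 35.8) in FPC-GFP livers. It fell without overlap, by 2.23-fold (log2 fold change -1.16, SE 0.28, adjusted p = 0.0183 by edgeR). Its 3 lowest livers were FPC-LIPA 36, 37 and 39, at 8.67, 10.3 and 10.9 CPM, the livers with the largest ribosomal protein shares, and the part of those shares in the result was not tested. Mmp17 (chr5:129584169-129611099), a membrane-type enzyme anchored by glycolipid, ran from 0.0794 to 0.347 CPM (median 0.249) against 0.513 to 0.948 CPM (median 0.586). It too fell without overlap, by 2.69-fold (log2 fold change -1.43, SE 0.37, adjusted p = 0.0215 by edgeR), at 28 reads or fewer in any library. Mmp17 passed the filter on low counts only through the FPC-GFP libraries, which held 10 to 28 reads. Its FPC-LIPA livers held 1 to 11 reads, so a difference was built into its being tested and its value is a description.

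Mmp19 ran from 30.7 to 54.0 CPM in FPC-LIPA livers, against 59.6 to 92.2 CPM in FPC-GFP livers, a difference without overlap that passed the adjusted p but not the 2-fold limit (log2 fold change -0.66, SE 0.17, adjusted p = 0.0226 by edgeR). In all tested genes, 3.81% were higher and 3.76% lower without overlap, against 2 and 3 of the 25 members. The 2 were Mmp27 and Mmp9, and the 3 were Mmp15, Mmp17 and Mmp19. Mmp9 and Mmp17 were tested only through the group where they were high, so these counts are descriptions. Mmp23, a membrane-anchored enzyme, also passed the adjusted p alone (log2 fold change 0.82, SE 0.26, adjusted p = 0.0371 by edgeR), its FPC-LIPA median of 2.52 CPM comparing with an FPC-GFP range of 1.08 to 1.84 CPM. An adjusted p under 0.05 was reached by 21.2% of all genes (14.4% higher and 6.87% lower) and by 5 members higher and 3 lower, Mmp9 and Mmp17 among them. Mmp14 and Mmp2, which act together at the cell surface, had fitted log2 values of -0.43 (SE 0.36) and -0.29 (SE 0.39) and were not DE.

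None of the 11 ADAMTS genes tested and none of the 3 TIMP genes tested was DE between FPC-LIPA and FPC-GFP livers in the fit to these 12 libraries. In other settings Adamts5 and Timp1 were DE and higher, with the DESeq2 Wald test (1.26 and 1.29, adjusted p = 0.0249 and 0.0183) and with all 18 libraries in 1 edgeR fit (1.21 and 1.26, adjusted p = 0.0302 and 0.0457). So was Adamts5 with the length trend removed (adjusted p = 0.0485 by edgeR), and Timp1 with a minimum of 1 CPM in 6 libraries (adjusted p = 0.0454 by edgeR). Adamts15 had 1.43 to 4.83 CPM in FPC-LIPA livers, overlapping the FPC-GFP range (log2 fold change -0.71, SE 0.29, adjusted p = 0.0867 by edgeR), and Adamts1 had 12.2 to 29.1 CPM (0.02, SE 0.24, adjusted p = 0.964 by edgeR). For Adamts5 the log2 fold change was 1.22 (SE 0.45, adjusted p = 0.0640 by edgeR), and it became 0.45 without FPC-LIPA 37, whose 10.4 CPM compared with 1.49 to 2.87 CPM in the other 5. Adamts2 and Adamts13 had -0.51 (SE 0.26) and -0.30 (SE 0.32). Adamts6, Adamts7, Adamts9, Adamts10 and Adamts14 had 0.72, 0.03, 0.0044, 0.35 and 0.44. Timp1, at 0.813 to 3.81 CPM (median 1.82), overlapped its FPC-GFP range and missed the threshold with a fitted log2 value of 1.27 (SE 0.44, adjusted p = 0.0517 by edgeR), and Timp2 and Timp3 had 0.14 (SE 0.16) and 0.09 (SE 0.19).

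Without FPC-LIPA 36, 37 and 39, none of the 28 members tested was DE, nor were more than 0.761% of all genes (116), against 11.4% with all livers. The 6 DE members had there the same direction, with log2 fold changes of 2.04 for Mmp12, 0.93 for Mmp27, 2.33 for Mmp9, 1.64 for Mmp13, -0.66 for Mmp15 and -1.22 for Mmp17, at adjusted p from 0.0757 to 0.244 by edgeR. Among the libraries with sample sheet numbers 55 to 68, which leave out FPC-GFP 20 and FPC-LIPA 37 here, 0 of the 26 members tested and 0.651% of all genes (96) were DE. The same 6 members kept their direction there, with 2.29 for Mmp12, 1.02 for Mmp27, 2.35 for Mmp9, 2.07 for Mmp13, -0.95 for Mmp15 and -1.38 for Mmp17 on the log2 scale, at adjusted p from 0.0611 to 0.0953 by edgeR. Mmp13 also missed the threshold when FPC-GFP 11, 13, 19 or 20 or FPC-LIPA 36, 37 or 39 was left out alone (log2 fold change 1.90 to 2.11), as did Mmp17 without FPC-GFP 13 (-1.31), whereas Timp1 and Adamts5 passed without FPC-LIPA 33 (1.37 and 1.35) or 34 (1.34 and 1.35). FPC-LIPA 33 had the lowest Mmp12 and Mmp13 of its group and the highest Mmp14 (48.7 CPM), Mmp2 (5.28 CPM), Adamts2 (7.90 CPM), Adamts10 (26.5 CPM) and Adamts14 (4.14 CPM).

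**Figure D5:**
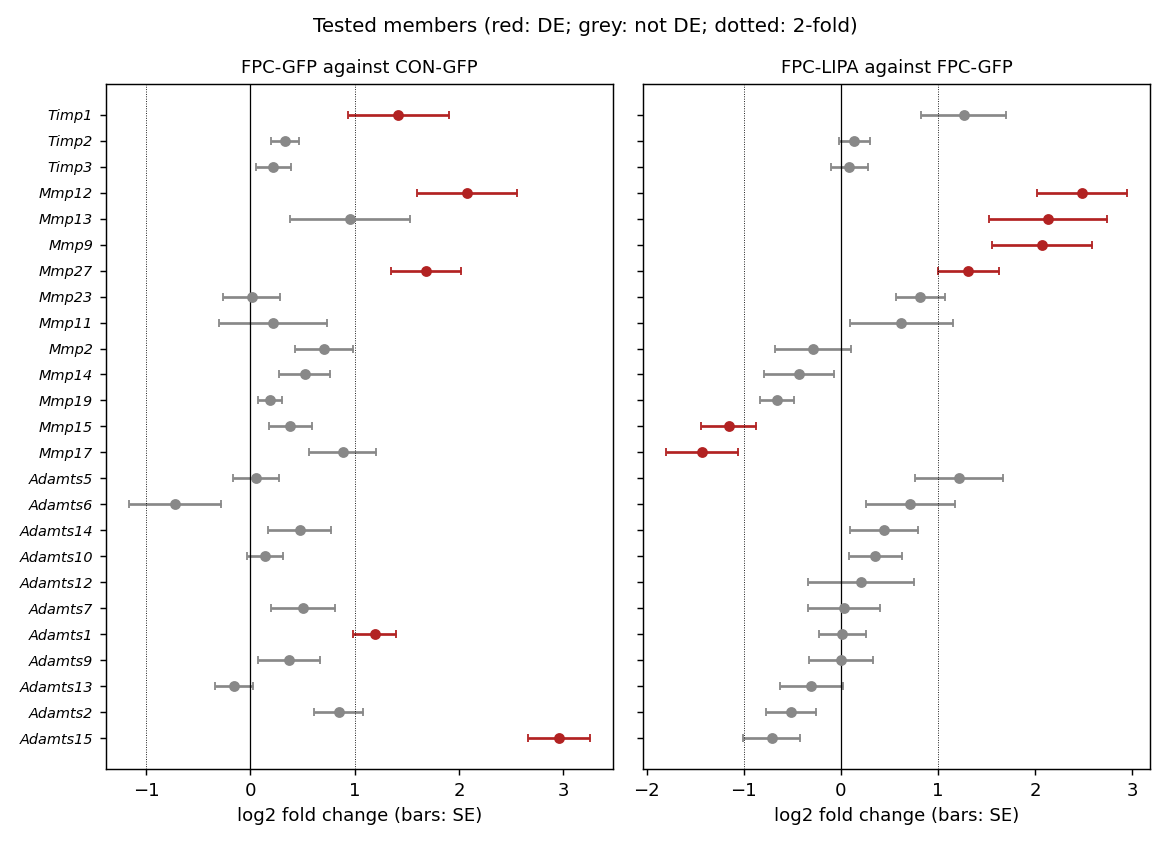
Log2 fold changes with SE of the tested members in the comparison of FPC-GFP with CON-GFP (left) and of FPC-LIPA with FPC-GFP (right), DE members in red, others in gray, and dotted lines at 2-fold. Red points are all to the right of 0 on the left panel and on both sides of 0 on the right panel.

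In whole liver, more cells of a type and more RNA per cell cannot be told apart, and markers of other cells moved in both comparisons. All 9 macrophage markers were DE and higher on the diet, with Gpnmb at a log2 fold change of 3.25 and a median of 1.52, and their summed level, 117 to 251 CPM in control livers, reached 367 to 626 CPM in those fed FPC. In FPC-LIPA livers it was 456 to 978 CPM and 3 of the 9 were DE against FPC-GFP, Adgre1 by a log2 fold change of 1.77 (Cd5l had the highest mean of the list, at 166 CPM). The markers did not move together with LIPA: the median was 0.92, but Cd68 was at 0.12 and Csf1r, alone below 0, at -0.13. In FPC-LIPA 36, 37 and 39, Csf1r (24.1, 27.5 and 26.7 CPM) and Cd68 (9.71, 6.43 and 7.00 CPM) lay below every FPC-GFP liver. Of 3 neutrophil markers tested with LIPA, S100a8 and S100a9 were DE (log2 fold changes 2.90 and 2.63) and Csf3r was not (0.55). Without FPC-LIPA 36, 37 and 39, S100a8 and S100a9 had 1.16 and 1.52 (adjusted p = 0.347 and 0.0610 by edgeR). The summed level of the neutrophil markers was 7.47 to 21.4 CPM against 2.68 to 5.88 CPM in FPC-GFP livers, and the defining marker Ly6g had a mean of 0.00753 CPM. No stellate cell marker of 8 was DE in either comparison, and the summed level was 71.0 to 95.1, 84.4 to 94.6 and 77.6 to 126 CPM in the groups in order. Reln led them at a mean of 31.4 CPM. Cdh5 was the 1 endothelial marker of 7 that was DE on the diet (log2 fold change 1.13), no cholangiocyte marker of 5 was DE, and of 6 lymphocyte markers tested with LIPA the B cell gene Ms4a1 alone was DE (2.32). Its livers ran from 0.243 to 1.05 CPM with GFP and from 0.851 to 6.85 CPM with LIPA, and since it passed the filter only through the latter this is a description. Their part in the results of the members was not tested.

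Genes that act with the members were followed as lists. Of 7 activators of the proteases, Plaur and Plat rose on the diet (log2 fold changes 1.39 and 1.25), and with LIPA Plau, the urokinase that starts the plasmin cascade, rose (1.25) while Furin, which cleaves the prodomain of membrane-type enzymes, fell (-1.17). Plat ran from 0.193 to 0.728 CPM in CON-GFP livers and from 0.576 to 1.59 CPM in FPC-GFP livers. Since Plat passed the filter on low counts only through the latter, its rise is a description. Plg, the plasminogen gene, had the highest mean of that list at 1382 CPM. Of 6 other protease inhibitors tested, Tfpi2 rose with LIPA (1.64) and Serpine2 and Pzp fell (-1.40 and -1.07), Pzp having the highest mean at 2245 CPM. Tfpi2 stood at 167, 454 and 169 CPM in FPC-LIPA 36, 37 and 39, against 38.5 to 73.3 CPM in the other 3 FPC-LIPA livers and 45.8 to 67.3 CPM in FPC-GFP livers. Pzp was at 711 to 899 CPM in FPC-LIPA 36, 37 and 39 and at 1334 to 2080 CPM in the other 3. Among substrates, Nid1 (1.91), Col1a1 (1.84), Col4a1 (1.19), Col3a1 (1.15) and Col1a2 (1.15) rose on the diet of 13 tested, and Col3a1 (1.70) was the only one DE with LIPA. Fn1, the fibronectin gene, was the highest of the list at 689 CPM.

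Of 4 cofactor and clearance genes, Cd44, a docking receptor for cell surface Mmp enzymes, rose in both comparisons (1.42 and 1.29), and Lrp1 was the most abundant at 353 CPM. Of 7 ADAM proteases tested, Adam8 rose on the diet (1.06) and 0 were DE with LIPA, with Adam9 the highest at 56.9 CPM. No ADAMTS-like gene was DE in either comparison, of 6 and 7 tested, with Adamtsl2 the highest at 6.62 CPM. Of 6 AP-1 subunit genes tested, Fosb and Fos rose on the diet (2.41 and 2.16) and 0 were DE with LIPA, with Jun the highest at 65.8 CPM. Fosb ran from 0.0815 to 0.521 CPM in CON-GFP livers and from 0.391 to 3.42 CPM in FPC-GFP livers. Since Fosb passed the filter on low counts only through the latter, its rise is a description. Serpina1c was the 1 hepatocyte marker of 5 that was DE, lower in both comparisons (-1.07 and -1.02). Of 14 genes in the marker and partner lists that were DE with LIPA, 3 were DE in the same direction without FPC-LIPA 36, 37 and 39, namely Plau (1.08), Cd44 (1.13) and Adgre1 (1.35), with Cd5l (1.08) added, and Tfpi2 had a log2 value of 0.16 there. Genes besides the most abundant and the most changed of each list were named after their values had been seen.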

How the data were processed

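RNA from 18 livers was sequenced as 1 library per mouse. The authors trimmed the reads, mapped them to GRCm38 with HISAT2 2.1.0 and counted them per gene with featureCounts from Subread, and the deposited values are raw counts without normalization. The annotation version, strand setting and treatment of reads mapping to several places are not given in the sources used here, which name both a stranded and an unstranded kit. Of 23 columns, 18 were matched to groups by condition and mouse number, and 5 columns of other vectors were not used. Members and further lists were chosen with earlier results of these data known.

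Counts were tested with edgeR 4.0.16 (R 4.3.3, quasi-likelihood test, TMM scaling, filterByExpr, Benjamini-Hochberg over all genes tested) on the 12 libraries of each comparison. DE meant a change of 2-fold or more together with an adjusted p below 0.05, and SE were derived from the F value. CPM were scaled over all 18 libraries, and lengths and positions came from the GENCODE annotation of GRCm38, which held 55227 of the genes. A floor of 3 counts was used. Members were named if DE, if a TIMP, or with a mean of at least 1 CPM (24 of 46). The procedure was tested on simulated data. Alternatives were another scaling, library size alone, DESeq2 1.42.0, other filters, all 18 libraries in one fit, no fold change minimum, removal of length trends, the libraries with sample sheet numbers 55 to 68, and each library left out in turn. Leaving out FPC-LIPA 36, 37 and 39 was chosen after seeing the data. With library size alone the median log2 fold change of all genes shifted by 0.20 and by -0.13. Libraries of a group differed by far more than sampling noise (chi-square per degree of freedom 15.4 to 591), so errors are given over mice. The diet result of the list of other protease inhibitors is not reported here.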

Additional observations from a re-analysis of the deposited data

Results flagged for a closer look

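In 9 of 72 groups of 6 livers, 1 value stood far above the other 5 in CPM. For normally distributed values the cutoff would flag about 1 in 20 groups, or 3.6 of 72, but the distribution of CPM was not tested. Groups at or under 3 counts are among the 72 but could not be flagged, so 9 against 3.6 is no comparison with chance. In FPC-LIPA livers the flagged values were Adamts10 in FPC-LIPA 33 at 26.5 against 7.30 to 14.4, Adamts5 in FPC-LIPA 37 at 10.4 against 1.49 to 2.87, Mmp27 in FPC-LIPA 37 at 8.34 against 2.74 to 4.47 and Mmp9 in FPC-LIPA 34 at 1.80 against 0.556 to 0.813. In FPC-GFP livers they were Adamts1 in FPC-GFP 12 at 28.1 against 15.3 to 19.6, Adamts6 in FPC-GFP 19 at 3.33 against 0.312 to 1.39, Mmp15 in FPC-GFP 20 at 51.8 against 32.8 to 37.3 and Mmp19 in FPC-GFP 11 at 92.2 against 59.6 to 68.3. In CON-GFP livers it was Timp4 in CON-GFP 7 at 0.364 against 0 to 0.0815. The causes were not tested.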

How the results depend on the processing

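The number of DE members on the diet was 5 and stayed between 4 and 7 in the other settings, and leaving out each liver gave 4 to 5. The 7, reached with library size alone, include Mmp17, whose diet values are descriptions. With LIPA the number was 6, and it was 0 with the sample sheet numbers 55 to 68 (0.651% of all genes DE) and 0 without FPC-LIPA 36, 37 and 39, while leaving out each liver gave 4 to 8. The sheet numbers, which stand in the labels and are not stated to be batches, leave out 4 livers, CON-GFP 1 and 2, FPC-LIPA 37 and FPC-GFP 20. Directions that reversed all belonged to members that were not DE in that comparison. On the diet these were Adamts10 with the sheet numbers (-0.060), Adamts13 with library size alone (0.024), and Mmp23 with the DESeq2 Wald test (-0.00096) and the sheet numbers (-0.11). Leaving out a liver gave -0.053 to 0.15 for Adamts5 and -0.10 to 0.28 for Mmp23. With LIPA they were, with library size alone, Adamts1 (-0.13), Adamts7 (-0.068), Adamts9 (-0.095) and Timp3 (-0.058), with no filter Adamts1 (-0.045), Adamts7 (-0.013) and Adamts9 (-0.054), and with the sheet numbers Adamts1 (-0.20) and Adamts9 (-0.19). Without FPC-LIPA 36, 37 and 39 they were Adamts13 (0.13), Mmp14 (0.13), Mmp2 (0.26) and Timp3 (-0.044). Leaving out a liver gave -0.15 to 0.17 for Adamts1, -0.22 to 0.22 for Adamts7, -0.15 to 0.17 for Adamts9 and -0.018 to 0.14 for Timp3. Timp1 on the diet passed the test in 7 of 19 other settings. The cause was not tested. At this depth, 10 members never exceeded 3 counts, and a difference in them was not detectable. No paired analysis was possible because the groups share no mouse number.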
